A study of Mus musculus with 20 samples.

Results

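Transcripts of 10 genes of extracellular proteolysis were followed in sorted mouse alveolar macrophages: the matrix metalloproteinases Mmp8, Mmp12, Mmp13, Mmp14 and Mmp19, the membrane-bound ADAM proteases Adam8, Adam10 and Adam17, and the inhibitors Timp1 and Timp2. They were chosen by name, and all 10 of the 10 listed genes were among the 13225 genes measured. The macrophages were sorted from lung as CD45+SiglecF+CD11c+ cells after 4 weeks of cigarette smoke or air. The groups were smoke-exposed miR-155 knock-out mice (KO smoke), smoke-exposed wild-type mice (WT smoke), knock-out mice in air (KO air) and wild-type mice in air (WT air), with 5 mice in each group and 1 poly-A library per mouse. Knock-out mice were of the strain B6.Cg-Mir155tm1.1Rsky/J, whose constitutive allele removes the microRNA in every cell and not only in macrophages, and wild-type mice were C57BL/6. Age and sex were not given in the sources used here, nor whether the genotypes were littermates. The comparisons ask how smoke changes the cells and whether loss of miR-155, a microRNA induced in activated leukocytes, alters that change.

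Matrix metalloproteinases are secreted or membrane-anchored zinc enzymes that cut elastin, collagens and other proteins outside the cell, and the TIMPs bind and block their active site. ADAMs sit in the membrane and cut the outer part off other membrane proteins, a step called shedding, through which cells release TNF or silence receptors. In the lung, macrophage elastase (MMP12) is known for its part in the emphysema that long smoke exposure causes in mice.

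The libraries carried 6885680 to 11952088 reads. All 16 listed markers of alveolar macrophages were measured, and they summed to 34838 to 39878 CPM (reads of a gene scaled to a common library size) in KO smoke, 32340 to 39545 in WT smoke, 33518 to 39464 in KO air and 34796 to 38688 in WT air. Chil3 weighs heavily in these sums, with medians of 18154 CPM in KO smoke, 17662 in WT smoke, 15754 in KO air and 16871 in WT air. Single markers did move with smoke. In knock-out mice 5 of the 16 were called higher and 6 lower (limma, adjusted p under 0.05), against 7.05% and 8.45% of all genes. In wild-type mice 4 were called higher and 7 lower, against 9.66% and 12.8% of all genes. Siglecf, the sorted antigen, was lower in smoke, at 168 to 273 CPM in KO smoke and 174 to 293 in WT smoke, against 397 to 606 in KO air and 489 to 574 in WT air. The KO air libraries IIIb2, IIIb3 and IIIb4 had 1451 to 1645 genes without a read, against 259 to 1224 in the other 17 libraries. The microRNA itself was not measured by these libraries. Its host transcript Mir155hg had 8 reads over the 5 libraries of KO smoke, 48 in WT smoke, 25 in KO air and 2 in WT air, and whether those reads lie in the deleted part was not tested, so they do not check the genotype. In bulk libraries such as these, fewer cells of a type and less RNA per cell cannot be told apart.

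Mmp12, Mmp13 and Mmp8 lie in 1 cluster on chromosome 9 (GENCODE M21, GRCm38), at chr9:7344381-7369499, chr9:7272514-7283331 and chr9:7558456-7568485, all on the plus strand. Their RefSeq promoter windows (GRCm38.p6), the 250 bases before each annotated start, are shown. The reason is that these genes had the highest smoke-to-air changes among the matrix metalloproteinases named in the opening. Mmp12 has a pair of annotated starts. Capitals mark TGANTCA, the core of the AP-1 element, which is the same on both strands.
Mmp12, chr9:7344147-7344396: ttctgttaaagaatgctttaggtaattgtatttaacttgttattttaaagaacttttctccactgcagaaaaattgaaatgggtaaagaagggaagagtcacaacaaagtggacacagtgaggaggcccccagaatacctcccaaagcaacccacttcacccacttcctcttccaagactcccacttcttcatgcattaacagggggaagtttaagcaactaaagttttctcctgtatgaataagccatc
Mmp12, chr9:7347124-7347373: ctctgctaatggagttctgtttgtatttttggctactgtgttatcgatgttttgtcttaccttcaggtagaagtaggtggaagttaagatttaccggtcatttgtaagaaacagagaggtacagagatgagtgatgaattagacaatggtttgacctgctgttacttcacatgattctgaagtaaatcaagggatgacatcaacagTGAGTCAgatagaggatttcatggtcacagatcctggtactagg
Mmp13, chr9:7272264-7272513: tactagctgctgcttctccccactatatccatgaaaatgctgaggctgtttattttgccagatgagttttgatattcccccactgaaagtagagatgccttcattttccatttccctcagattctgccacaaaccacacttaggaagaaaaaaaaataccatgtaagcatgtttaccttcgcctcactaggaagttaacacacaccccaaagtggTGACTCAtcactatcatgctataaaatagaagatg
Mmp8, chr9:7558179-7558428: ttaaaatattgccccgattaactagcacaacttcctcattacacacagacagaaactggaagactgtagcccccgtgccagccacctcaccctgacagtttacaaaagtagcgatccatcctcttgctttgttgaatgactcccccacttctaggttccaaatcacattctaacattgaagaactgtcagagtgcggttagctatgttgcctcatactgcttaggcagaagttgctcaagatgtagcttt
The motif began 44 bases before the downstream Mmp12 start and 35 bases before the Mmp13 start. Of the 10 windows that RefSeq gave for 9 of the genes, these 2 held it, while 6.75% of 32851 windows of the same length did (Mmp19 had no window). Windows of Mmp8, Mmp14, Adam8, Adam10, Adam17, Timp1 and Timp2 did not contain these letters.

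Compared per kilobase of exon, Mmp19 was the most abundant of the 10 transcripts in all 4 groups. It averaged 99.6 ± 21.4 CPM per kb in KO smoke, 101 ± 12.8 in WT smoke, 78.0 ± 20.04 in KO air and 74.0 ± 8.71 in WT air (SD, n = 5 each). Mmp8 came next in smoke, at 65.3 ± 21.1 CPM per kb in KO smoke and 77.4 ± 28.6 in WT smoke; in WT smoke its gap to Mmp19 was smaller than the SD of Mmp8. In air Mmp8 ranked below both sheddases and Timp2, at 11.96 ± 2.89 CPM per kb in KO air and 14.6 ± 2.24 in WT air. Adam10, Adam17 and Timp2 formed a middle level in smoke, between 31.0 and 36.8 CPM per kb in KO smoke and between 30.7 and 35.2 in WT smoke, and neighbours among them differed by less than their SDs, other than Adam10 and Timp2 in KO smoke (36.8 ± 2.96 against 32.9 ± 3.18). Mmp12 reached 7.21 ± 3.56 CPM per kb in KO smoke and 26.6 ± 16.4 in WT smoke, against 0.914 ± 0.475 in KO air and 1.005 ± 0.273 in WT air. Timp1, Adam8, Mmp14 and Mmp13 had group means of at most 5.54 CPM per kb, and their order differed between groups.

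**Figure D1:**
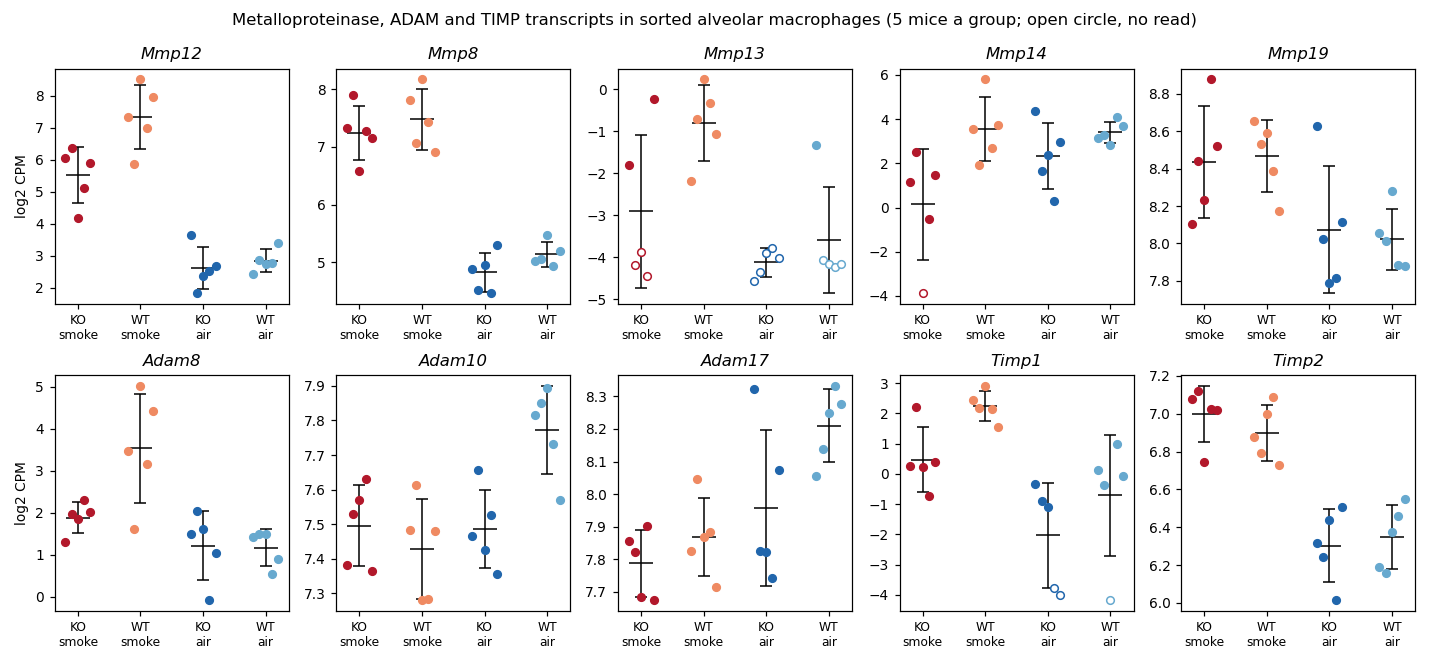
Log2 CPM of each gene in each library, by group; bars give the mean and SD over 5 mice, and open circles are libraries without a read of the gene. Mmp12 and Mmp8 were higher in every smoke library than in any air library of either genotype, while Adam10 and Adam17 stayed within a narrow range.

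In wild-type macrophages smoke raised 7 of the 10 transcripts and lowered 2. Those that rose were the elastase Mmp12, the collagenases Mmp8 and Mmp13, Mmp19, the leukocyte protease Adam8 and both inhibitors; the sheddases Adam10 and Adam17 fell, and Mmp14 did not pass the test (limma, adjusted p under 0.05). Of all genes 9.66% were called higher and 12.8% lower in this comparison. The median log2 change of the 10 genes was 1.44, and that of all genes -0.02. For 6 of the 10, the smoke and air libraries did not overlap, 5 of them wholly above and 1 wholly below; 18.1% of all genes did not overlap in either direction.

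In knock-out macrophages smoke raised 4 of the 10, Mmp12, Mmp8, Timp1 and Timp2, and lowered none (0 of 10), though Mmp14 passed as lower without either IIIb3 or IVa4. Of all genes 7.05% were called higher and 8.45% lower. The median log2 change of the 10 genes was 0.68, which is also its value with Mmp13, absent in KO air, set at its lower bound, and that of all genes was -0.01. Libraries of 3 genes, Mmp8, Mmp12 and Timp2, lay wholly above air, against 9.88% of all genes without overlap in either direction. Without the 3 KO air libraries rich in genes at 0 reads, 3 of the 10 were called, and Timp1 was the one lost.

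**Figure D2:**
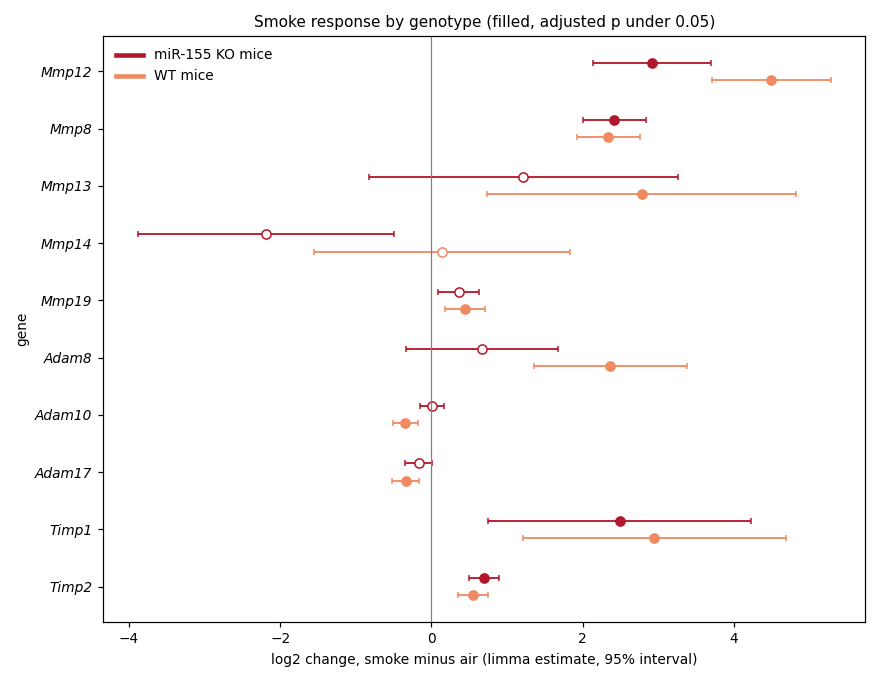
Log2 change from air to smoke for each gene, with the 95% interval of limma, in knock-out mice above wild-type mice; filled points had an adjusted p under 0.05. Mmp8 had nearly the same estimate in both genotypes (2.42 and 2.34), while the estimate of Mmp12 was 2.91 in knock-out and 4.50 in wild-type mice.

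Mmp12, the macrophage elastase, had the widest change. Its levels in KO smoke libraries were 66.6, 82.5, 18.1, 34.3 and 59.6 CPM, and in WT smoke libraries 162, 58.8, 367, 126 and 247 CPM. In KO air they were 12.5, 3.50, 5.12, 5.66 and 6.32 CPM, and in WT air 5.25, 7.18, 6.55, 6.82 and 10.6 CPM. Every smoke library exceeded every air library, and 1 WT smoke library, IIa5 at 58.8 CPM, lay among those of KO smoke. The log2 change with smoke was 2.91 ± 0.38 in knock-out mice (limma adjusted p 2.21e-06) and 4.50 ± 0.38 in wild-type mice (6.15e-10). Both calls held under all 34 alternative settings. Its exons share 157 bases with Mmp1b on the opposite strand. Mmp1b was not among the genes measured. Since no source used here says whether counting was by strand, reads of that stretch cannot be told apart.

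Mmp8, a collagenase best known from neutrophils, rose to a similar extent in both genotypes. KO smoke libraries had 160, 238, 95.6, 156 and 143 CPM, and WT smoke libraries 224, 134, 288, 172 and 120 CPM. The air libraries held 22.1 to 39.3 CPM (median 29.7) in KO air and 30.6 to 44.3 CPM (median 33.3) in WT air. No smoke library overlapped an air library, and KO smoke and WT smoke overlapped. The log2 changes were 2.42 ± 0.20 in knock-out (limma adjusted p 7.78e-10) and 2.34 ± 0.20 in wild-type mice (9.62e-10), and their difference, knock-out minus wild type, was 0.08 with a 95% interval from -0.51 to 0.67.

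Because Mmp8 is also a neutrophil gene, the neutrophil markers are given beside it. Of 15 listed markers 7 were measured, and they summed to 221 to 290 CPM in KO smoke, 210 to 259 in WT smoke, 101 to 186 in KO air and 150 to 172 in WT air. S100a9, a calcium-binding protein abundant in neutrophils, had 4 reads over the KO smoke libraries, 81 in WT smoke and 0 in both air groups. Cxcr2, a chemokine receptor, had 16.2 to 39.3 CPM in KO smoke, 11.1 to 28.5 in WT smoke, 4.77 to 12.5 in KO air and 5.54 to 9.44 in WT air. Csf3r, the receptor of the neutrophil growth factor G-CSF, went the other way, with 21.7 to 25.8 CPM in KO smoke, 14.8 to 21.0 in WT smoke, 54.7 to 86.6 in KO air and 47.4 to 66.7 in WT air. With smoke limma called 3 of the 7 higher in each genotype (Cxcr1, Cxcr2 and S100a8 in knock-out, Cxcr1, Cxcr2 and S100a9 in wild-type mice) and Csf3r lower in both, calls that were not repeated under the alternatives. The granule and surface markers Mpo, Elane and Ly6g were listed but were not among the genes measured. Genes listed as markers of other cell types also moved with smoke, those of epithelium in both directions. The 1 of 7 listed eosinophil markers that was measured, Ear6, had 87.9 to 124 CPM in KO smoke, 97.8 to 161 in WT smoke, 3.77 to 22.5 in KO air and 13.7 to 23.3 in WT air. Prg2, Epx and the rest of that list were not among the genes measured, so Ear6 alone does not mark eosinophils. Ear1 and Ear2 are on the alveolar macrophage list and were called lower with smoke in both genotypes. The 5 of 8 dendritic cell markers measured summed to 195 to 226 CPM in KO smoke, 213 to 363 in WT smoke, 121 to 167 in KO air and 138 to 163 in WT air. The 3 of 13 stromal and endothelial markers measured summed to 293 to 367 CPM in KO smoke, 286 to 342 in WT smoke, 167 to 220 in KO air and 190 to 238 in WT air. The sums of the 9 of 14 epithelial markers measured lay lower in WT smoke than in WT air, at 718 to 828 CPM in KO smoke, 599 to 740 in WT smoke, 804 to 977 in KO air and 808 to 935 in WT air. In knock-out mice limma called 1 of the 9 higher (Cdh1) and 3 lower (Epcam, Napsa, Krt19), against 7.05% and 8.45% of all genes. In wild-type mice 3 were higher (Cdh1, Hopx, Foxj1) and 3 lower (Epcam, Krt19, Napsa), against 9.66% and 12.8%. The part of RNA of other cell types in the smoke responses of Mmp8 and Mmp12 was not tested.

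Mmp13, collagenase-3, was barely transcribed. It had 9 reads over the 5 KO smoke libraries, 28 in WT smoke, 0 in KO air and 3 in WT air, and all 5 WT smoke libraries had at least 2. The WT smoke to WT air ratio of these reads was 8.65 (95% binomial interval 2.67 to 44.4). Summed over the group, KO smoke reads were 2.98-fold higher than KO air with 3 reads set for KO air, as the most a count of 0 allows. The counting error of the 9 KO smoke reads is not in that bound. That bound rests mainly on IVb4, which held 7 of the 9 KO smoke reads. IVa2 held the other 2, and 3 KO smoke libraries had 0. The log2 change in knock-out mice, 1.22, was not called (limma adjusted p 0.462). The limma call in wild-type mice (adjusted p 0.0433) was lost in 12 of 32 alternatives, up to 0.124, and without any of Ia4, Ib1, Ib2, Ib4, IIa5, IIb1, IIb2 and IIb3. The binomial interval covers counting error only.

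Mmp19, a secreted metalloproteinase that cuts basement membrane proteins, moved little against its high level. It ranged from 275 to 470 CPM in KO smoke (median 348), 289 to 403 in WT smoke (median 370), 221 to 395 in KO air (median 260) and 236 to 311 in WT air (median 258). Smoke and air ranges overlapped in both genotypes. The log2 change was 0.36 ± 0.13 in knock-out mice (limma adjusted p 0.0606) and 0.45 ± 0.13 in wild-type mice (0.0136). The wild-type call was lost without a trend in the variance prior (0.0614), and the knock-out change passed in 7 of 34 alternatives. Exons of Mmp19 share 789 bases with Tmem198b on the opposite strand, whose own log2 change in wild-type mice was -0.44 ± 0.22 (adjusted p 0.162).

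Mmp14, the membrane-anchored enzyme that activates pro-MMP2, showed wide scatter in smoke. KO smoke libraries had 2.18, 5.59, 0, 0.642 and 2.72 CPM, and WT smoke libraries 11.8, 3.79, 55.9, 6.43 and 13.4 CPM. In KO air the levels were 20.7, 3.11, 5.12, 1.16 and 7.68 CPM, and in WT air 8.91, 9.58, 7.11, 16.8 and 12.8 CPM. KO smoke lay wholly below WT air and overlapped WT smoke and KO air, and 1 WT smoke library, IIb1, held 497 of the 850 WT smoke reads. The log2 change with smoke was -2.19 ± 0.83 in knock-out (limma adjusted p 0.0726) and 0.14 ± 0.83 in wild-type mice (0.936). Without IIb1 the wild-type estimate was -0.42. The knock-out decrease passed without IIIb3 (-2.70, 0.0275) or without IVa4 (-2.78, 0.0240).

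These shifts changed the mix of metalloproteinase transcripts. As a share of the summed CPM per kb of the 5 genes, Mmp19 made up 58.2 ± 8.96% in KO smoke, 49.9 ± 8.62% in WT smoke, 84.6 ± 3.14% in KO air and 80.8 ± 1.79% in WT air (SD, n = 5 each). Mmp8 made up 37.4 ± 7.17% in KO smoke, 36.4 ± 5.06% in WT smoke, 13.3 ± 3.28% in KO air and 15.97 ± 1.29% in WT air. Mmp12 made up 4.11 ± 1.84% in KO smoke and 12.4 ± 6.39% in WT smoke, against 0.958 ± 0.275% in KO air and 1.12 ± 0.363% in WT air. The summed level was 173 ± 34.0 CPM per kb in KO smoke, 208 ± 51.7 in WT smoke, 92.2 ± 22.5 in KO air and 91.5 ± 9.92 in WT air.

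**Figure D3:**
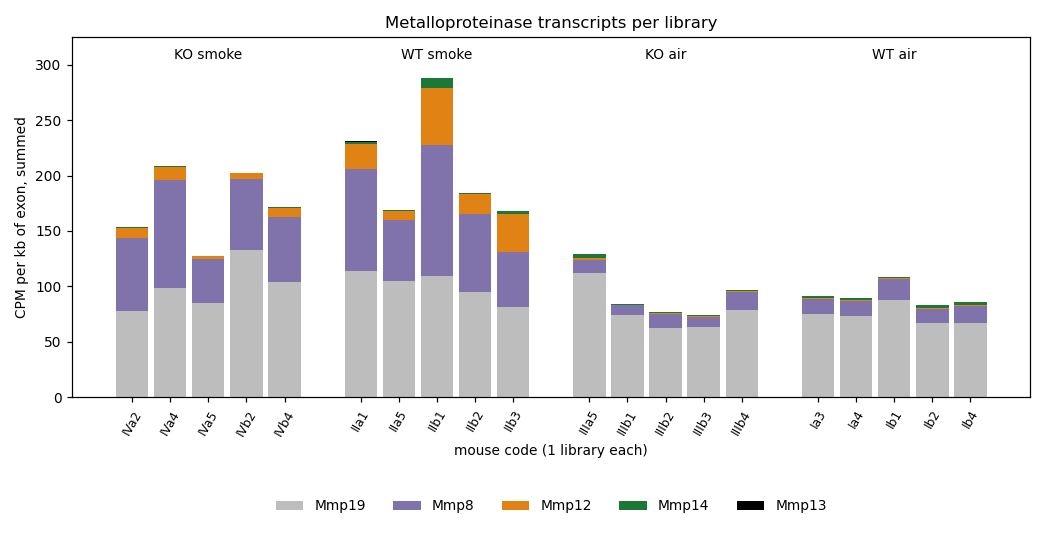
Summed CPM per kb of exon of the 5 metalloproteinases in each library, stacked by gene. Mmp19 fills most of every air bar, and Mmp8 and Mmp12 add most of the height in smoke; the WT smoke library IIb1 is the tallest at 289 CPM per kb.

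The inhibitors rose too. Timp2, which blocks metalloproteinases and also takes part in the activation of pro-MMP2 by MMP14, had 135, 139, 107, 130 and 130 CPM in KO smoke and 117, 111, 128, 136 and 106 CPM in WT smoke. It had 64.6 to 90.8 CPM in KO air (median 79.6) and 71.5 to 93.4 in WT air (median 83.0). Neither genotype's smoke libraries overlapped its air libraries. The log2 change was 0.69 ± 0.10 in knock-out (limma adjusted p 6.94e-06) and 0.55 ± 0.10 in wild-type mice (0.000107), and both held in all 34 alternatives.

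Timp1, a soluble inhibitor of many metalloproteinases, was scarce. It had 1.15, 4.60, 1.09, 0.551 and 1.25 CPM in KO smoke and 5.45, 4.46, 7.42, 4.40 and 2.89 CPM in WT smoke, against 0 to 0.753 in KO air and 0 to 1.92 in WT air. All WT smoke libraries lay above WT air, and KO smoke overlapped KO air. The log2 change was 2.49 ± 0.85 in knock-out (limma adjusted p 0.0447) and 2.95 ± 0.85 in wild-type mice (0.0115). The reads gave a ratio to air of 4.50 (95% binomial interval 2.64 to 8.12) in knock-out and 5.33 (3.81 to 7.62) in wild-type mice. The knock-out call was lost in 21 of 32 alternatives, without any of Ia4, Ib4, IIa1, IIa5, IIb1, IIb2, IIIb3, IIIb4, IVa2, IVa4, IVa5 and IVb4, and the change fell to 1.08 without the 3 KO air libraries rich in genes at 0 reads (adjusted p 0.564). The wild-type call was lost without Ib1, which had no Timp1 read (0.0510).

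The summed metalloproteinase level per kb was 4.94 ± 0.662 times the summed TIMP level in KO smoke, 5.71 ± 0.967 times in WT smoke, 4.46 ± 0.989 times in KO air and 4.22 ± 0.785 times in WT air (SD, n = 5 each). The ranges of this ratio overlapped between smoke and air, at 4.27 to 5.94 in KO smoke, 4.63 to 7.001 in WT smoke, 3.39 to 6.07 in KO air and 3.36 to 5.09 in WT air. It is a ratio of transcripts and not of enzyme to inhibitor.

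Adam8, a protease of activated leukocytes, changed with smoke in wild-type mice. KO smoke libraries had 2.41, 3.83, 3.54, 4.86 and 3.96 CPM, and WT smoke libraries 10.98, 3.01, 32.3, 8.90 and 21.4 CPM. Levels in air were 0.871 to 4.08 CPM (median 2.76) in KO air and 1.39 to 2.78 CPM (median 2.63) in WT air. Of the 5 WT smoke libraries 4 exceeded every KO smoke library, and IIa5 did not. The log2 change was 0.67 ± 0.49 in knock-out (limma adjusted p 0.405) and 2.37 ± 0.49 in wild-type mice (0.000634), and the wild-type call held in all 33 alternatives.

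The sheddases went the other way in wild-type mice. Adam10, which cuts Notch receptors and other surface proteins, had 165 to 198 CPM in KO smoke (median 185) and 155.4 to 196 in WT smoke (median 179), against 164 to 202 in KO air (median 177) and 190 to 238 in WT air (median 225). WT air stood highest, and 1 WT smoke library at 196 CPM exceeded the lowest WT air library at 190 CPM. The log2 change was 0.01 ± 0.08 in knock-out (limma adjusted p 0.958) and -0.34 ± 0.08 in wild-type mice (0.00165).

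Adam17, the TNF-converting enzyme, had 204 to 239 CPM in KO smoke (median 227) and 210 to 265 in WT smoke (median 233), against 214 to 320 in KO air (median 227) and 266 to 322 in WT air (median 304). WT smoke lay wholly below WT air. The log2 change was -0.17 ± 0.09 in knock-out (limma adjusted p 0.208) and -0.34 ± 0.09 in wild-type mice (0.00455). Both wild-type decreases held in all 34 alternatives, and the shared exon bases of Adam17 with Iah1 on the opposite strand (311 bases) go with a change of -0.14 ± 0.13 in Iah1 (adjusted p 0.478).

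Between genotypes, 2 of the 10 genes differed under smoke, Mmp12 and Mmp14, both lower in knock-out macrophages. Of all genes 1.58% were called in either direction, and the median log2 difference of the 10 genes was -0.94, that of all genes -0.02. Mmp12 was lower by a log2 difference of -1.81 ± 0.38 (limma adjusted p 0.00923) and Mmp14 by -3.41 ± 0.83 (0.0270). Adam8 differed by -1.65 ± 0.49 but did not pass (0.0868), and the differences of Mmp8 (-0.23 ± 0.20), Mmp19 (-0.03 ± 0.13) and Timp2 (0.10 ± 0.10) were small beside their smoke changes. For both called genes the KO smoke and WT smoke libraries overlapped. The WT smoke libraries that serve here are those of the wild-type smoke response, so the comparisons share them.

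Both genotype calls rested on few libraries. Without the WT smoke library IIb1 neither gene was called, with Mmp12 at -1.52 (adjusted p 0.0586) and Mmp14 at -2.84 (0.133). The Mmp14 call was also lost without IIa1, IIb3, IVa5 or IVb2 (up to 0.0829) and with voom weights (0.112). Without IVa5, which had no Mmp14 read, the Mmp14 difference was -2.40. Over all alternatives it lay between -4.00 and -1.37, so its size is uncertain. Both were lost without a trend in the variance prior (0.0837 and 0.142) or with a robust one (0.0724 and 0.123). Adam8 passed in 5 of 33 alternatives, among them the one without IIa5 (0.00830), and had 0.319 without IIb1. Timp1 passed in 2 of 32, with log2 of CPM plus 1 (0.0353) and plus 5 (0.0134).

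**Figure D4:**
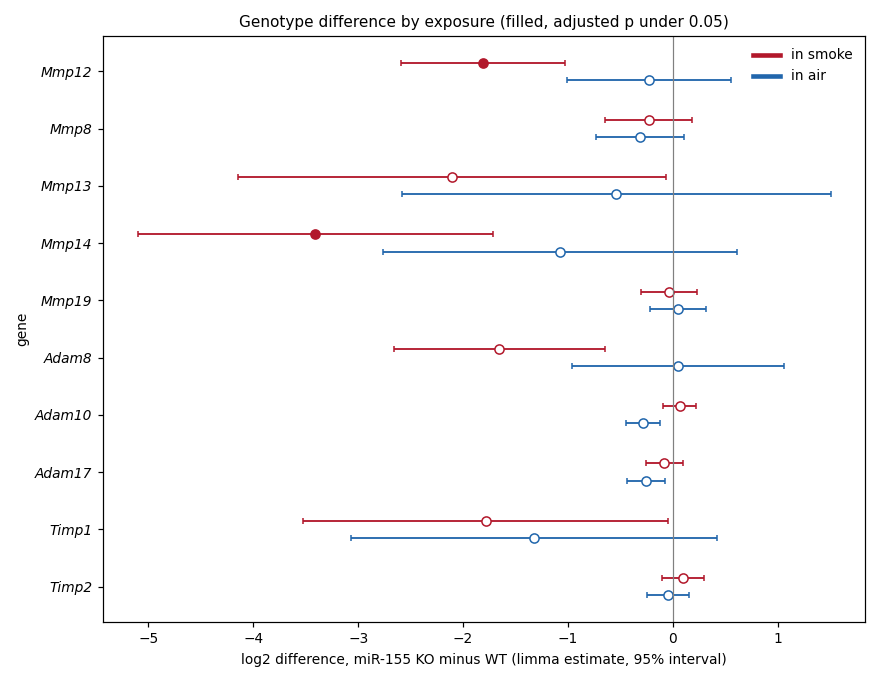
Log2 difference, knock-out minus wild type, for each gene with the 95% interval of limma, in smoke above air; filled points had an adjusted p under 0.05. Mmp12 (-1.81) and Mmp14 (-3.41) in smoke are the filled points, and no gene is filled in air.

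C1qa, a complement gene used here as a marker of monocyte-derived and interstitial macrophages, is given beside these genes. With smoke it was 258-fold higher in wild-type mice, with 3 reads set for the 0 of WT air. In KO smoke it had 2.64, 4.27, 0.682, 0 and 2.15 CPM in IVa2, IVa4, IVa5, IVb2 and IVb4, and in WT smoke 14.5, 3.45, 42.9, 8.90 and 18.7 CPM in IIa1, IIa5, IIb1, IIb2 and IIb3. The WT smoke libraries had the same order for C1qa, Mmp12, Mmp14 and Adam8, with IIb1 highest and IIa5 lowest. The KO smoke libraries did not share 1 order. There IVa4 was highest in C1qa, Mmp12 and Mmp14. Adam8 was highest in IVb2 (4.86 CPM), which had no C1qa read, and lowest in IVa2 (2.41 CPM). Of the 15 listed markers of these cells 10 were measured, and they summed to 123 to 141 CPM in KO smoke, 128 to 300 in WT smoke, 188 to 210 in KO air and 172 to 206 in WT air, with Ly6c2 and C1qa at 0 reads in WT air. The C1qa difference between genotypes in smoke was -3.73 ± 1.02 (limma adjusted p 0.0582), and 0 of the 10 markers were called. The part of these cells in the Mmp12, Mmp14 and Adam8 results was not tested.

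**Figure D5:**
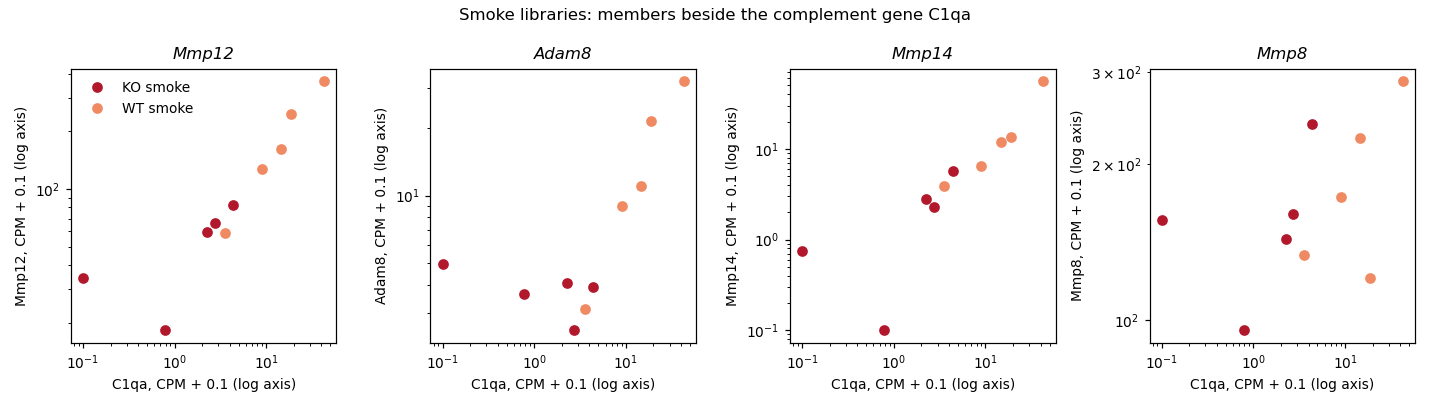
CPM plus 0.1 of Mmp12, Adam8, Mmp14 and Mmp8 against that of C1qa in the 10 smoke libraries, on log axes. The WT smoke library with 42.9 CPM of C1qa also has the highest Mmp12 (367 CPM), Adam8 (32.3), Mmp14 (55.9) and Mmp8 (288). Among KO smoke libraries the highest Adam8 (4.86) is in the one with 0 CPM of C1qa.

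In air 0 of the 10 genes differed between genotypes by limma, where 0.416% of all genes were called. At an unadjusted p under 0.05 there were 2, Adam10 at -0.29 ± 0.08 (adjusted p 0.09999) and Adam17 at -0.25 ± 0.09 (0.227), and with voom weights 0 were called. Of all genes 11.6% were under that unadjusted threshold. Both were lower in KO air than in WT air, and Adam17 passed without the KO air library IIIa5 (0.0224). The median log2 difference of the 10 genes was -0.27, or -0.25 with Mmp13 left out for its few reads, and that of all genes -0.04.

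The smoke responses of the genotypes were then compared directly. Of all 13225 genes 0.0% had a difference of responses that passed in limma, and 0 of the 10 genes did. At an unadjusted p under 0.05 there were 1302 genes (9.84%), 3 of them studied here, and with voom weights 0 genes were called. Mmp12 had a difference, knock-out minus wild type, of -1.58 ± 0.54 (adjusted p 0.311, 95% interval -2.69 to -0.48). The difference was -1.70 ± 0.70 for Adam8 (0.392) and 0.35 ± 0.11 for Adam10 (0.290). Calls made in one genotype and not in the other, such as those of Adam8, Adam10 and Adam17, were thus not shown to differ between genotypes.

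The seed of the microRNA is shown because its absence defines the knock-out. Capitals mark bases 2 to 8 in the mature sequence (RefSeq, GRCm38.p6, chr16:84714143-84714165, plus strand) and their match AGCATTA in the longest annotated 3′ UTR of each gene (GENCODE M21).
mmu-miR-155-5p: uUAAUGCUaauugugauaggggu
Mmp19, bases 1690 to 1696 of the 3′ UTR: ggttccacctcAGCATTAcagaa
Timp2, bases 326 to 332 of the 3′ UTR: agcagacaggcAGCATTAagggt
Timp2, bases 1844 to 1850 of the 3′ UTR: atgcctttcgtAGCATTAgactt
Of the 10 genes 2 held the match, against 9.13% of 11274 measured genes with a 3′ UTR. The log2 difference of Mmp19, knock-out minus wild type, was -0.03 ± 0.13 in smoke and 0.05 ± 0.13 in air, and that of Timp2 was 0.10 ± 0.10 in smoke and -0.04 ± 0.10 in air. None of these 4 differences passed in limma (adjusted p 0.742 to 0.957). Mmp12 and Mmp14, the genes that were lower in KO smoke, had no such letters in that UTR.

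Within groups some of these genes varied together from mouse to mouse. Over the 20 libraries, with group means removed, Pearson's r was 0.85 for Mmp12 with Mmp14, 0.70 for Mmp8 with Mmp14 and 0.67 for Mmp8 with Timp2, and -0.65 for Adam10 with Timp2. These are descriptions; the points share libraries and depth. Among 8906 other genes averaging 3 or more on the log2 CPM scale (8907 for Adam8), those most like Mmp12 were Ctsb (0.87), the lysosomal protease cathepsin B, the chemokine gene Ccl9 (0.86) and Basp1 (0.81). Most like Mmp8 were Ms4a6c (0.87), the transporter gene Slc36a1 (0.86) and the glucose transporter gene Slc2a1 (0.83). Most like Timp2 were Ttc39c (0.83), Cnst (0.81) and Adgre1 (0.81), which encodes the macrophage antigen F4/80, and most like Adam8 were Mospd3 (0.81), Cnn2 (0.78) and Gtf2e1 (0.78).

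Other genes of the system were counted from lists, and medians of a list stand against the all-gene medians of -0.01 in knock-out and -0.02 in wild-type mice given above. The shares of all genes called were 7.05% higher and 8.45% lower in knock-out and 9.66% higher and 12.8% lower in wild-type mice, and counts such as 1 of 9 genes are near them. Of 18 further metalloproteinases 5 were measured, and 1, the gelatinase Mmp2, was called higher in wild-type mice. It had 15 reads in KO smoke, 107 in WT smoke and 0 in both air groups. With 3 reads set for each air group, KO smoke was 4.97-fold and WT smoke 33.0-fold higher than air. Its reads were uneven, at 0 to 0.566 CPM in KO smoke libraries and 0 to 7.54 in WT smoke (mean 2.31, SD 3.13). The call was lost without IIb1 or IIb3 (up to 0.0750). Mmp10 and Mmp27, neighbours of Mmp8 in the chromosome 9 cluster, had 4 and 14 reads in KO smoke, 20 and 31 in WT smoke, 0 and 4 in KO air and 6 and 8 in WT air, and neither was called. The median log2 change of the 5 was 1.53 in knock-out and 1.32 in wild-type mice, with genes at 0 reads in air set at their bounds.

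Of 25 further ADAM genes 9 were measured, with 0 higher and 1 lower in knock-out and 1 higher and 1 lower in wild-type mice. Their median log2 change was 0.49 in knock-out and -0.20 in wild-type mice. Adam19 rose in wild-type mice by 5.15 ± 0.96 (limma adjusted p 0.000196), with 38 reads in KO smoke, 162 in WT smoke, 7 in KO air and 5 in WT air. Adam22, a member without a working catalytic site, fell by 1.35 ± 0.17 in knock-out and by 1.73 ± 0.17 in wild-type mice, and had 15.01 to 28.2 CPM in KO smoke, 10.2 to 21.4 in WT smoke, 41.2 to 61.3 in KO air and 45.5 to 57.5 in WT air. Of 19 ADAMTS genes 4 were measured, with medians of -0.34 in knock-out and -0.50 in wild-type mice, of which 1, Adamts10, fell in knock-out (-0.31 ± 0.10) and 2, Adamts10 (-0.44 ± 0.10) and Adamts6 (-1.63 ± 0.51), fell in wild-type mice. The knock-out call of Adamts10 was lost in 9 of 34 alternatives (up to 0.320), among them those without IIIb3, IVa2, IVa4 or IVb4. The Adamts6 call was lost without Ib1, IIb2 or IIb3 (up to 0.0734).

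Inhibitors of other protease classes were mixed. Of 20 listed 9 were measured, with 3 higher and 2 lower in knock-out (median 0.04) and 4 higher and 2 lower in wild-type mice (median 0.16). Cstb, an inhibitor of cathepsins, rose by 0.62 ± 0.08 in knock-out and 0.76 ± 0.08 in wild-type mice, and the serpins Serpinb6a and Serpinb1a rose by 0.36 and 0.35 in knock-out and by 0.44 and 0.42 in wild-type mice. The counts include Serpinb8, higher in wild-type mice and named after its values were seen, whose call was lost in 17 of 32 alternatives. Slpi, the secreted inhibitor of neutrophil elastase, fell with smoke, to 140 to 192 CPM in KO smoke and 89.1 to 138 in WT smoke, against 233 to 360 in KO air and 211 to 300 in WT air. Slpi was higher in KO smoke than in WT smoke by 0.55 ± 0.12 (limma adjusted p 0.00930), a call lost without a trend in the variance prior (0.0761).

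Genes that activate proteases at the cell surface had 9 of 13 measured, with 1 higher in knock-out (median 0.06), 4 higher in wild-type mice (median 0.06) and 0 lower in either. The membrane serine protease gene St14 rose by 3.58 ± 0.80 in knock-out and 4.73 ± 0.80 in wild-type mice. In wild-type mice S100a10 (0.31 ± 0.07), the proprotein convertase gene Furin (0.41 ± 0.10) and the urokinase gene Plau (0.63 ± 0.18) also rose, the last not without IIb1 (adjusted p 0.0585). A list of 13 genes held partners of ADAM10 and ADAM17 together with other tetraspanins, and binding of each to these enzymes was not tested. Of the 13, 10 were measured, with 1 higher and 1 lower in knock-out (median 0.17) and 2 higher and 2 lower in wild-type mice (median 0.14). The tetraspanin gene Tspan4 rose by 1.06 ± 0.21 in knock-out and 1.502 ± 0.21 in wild-type mice, and Frmd8, which encodes a partner that stabilises ADAM17 at the surface, fell by 0.23 ± 0.07 in knock-out and by 0.28 ± 0.07 in wild-type mice. The knock-out call of Frmd8 was lost in 14 of 34 alternatives (up to 0.215), among them those without IIIb1, IIIb3, IIIb4, IVa2 or IVb4. Tspan17 rose (0.74 ± 0.21) and Rhbdf1 fell (-1.18 ± 0.37) in wild-type mice, and the Rhbdf1 call was lost without Ia4 or IIa5 (up to 0.0585).

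Of 30 listed proteins known to be shed, 25 were measured at the transcript level, with 3 higher and 8 lower in knock-out (median -0.13) and 2 higher and 9 lower in wild-type mice (median -0.06). The phagocyte genes Gpnmb and Trem2 rose, by 1.30 ± 0.09 and 1.64 ± 0.14 in knock-out and by 1.17 ± 0.09 and 1.69 ± 0.14 in wild-type mice. The interleukin-6 receptor gene Il6ra fell by 0.60 ± 0.09 in knock-out and by 0.98 ± 0.09 in wild-type mice, and Ptprc, which encodes CD45, fell by 0.30 ± 0.08 in knock-out and by 0.69 ± 0.08 in wild-type mice. Of the wild-type decreases, those of Csf1r and Jag1 were lost in 5 and 3 of 34 alternatives.

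Between KO smoke and WT smoke, 1 of these 25 was called higher and 3 lower, where 1.58% of all genes were called in either direction. Il6ra was higher by 0.51 ± 0.09 (limma adjusted p 0.00186). Tnf, Areg and Ereg, named after their values were seen, were lower. Tnf, the classic substrate of ADAM17, had 5.66 to 11.1 CPM in KO smoke and 13.3 to 16.9 in WT smoke, without overlap, a difference of -0.95 ± 0.21 (0.0113) that voom weights did not call (0.0627). The EGF-receptor ligand genes Areg and Ereg were scarce, with 0 and 2 reads in KO smoke against 63 and 69 in WT smoke. With 3 reads set for the 0 of KO smoke, Areg was 19.7-fold lower (limma adjusted p 0.00626). Ereg had a ratio of 0.0309 (95% binomial interval 0.00367 to 0.116). Their reads also differed in air, with 3 of Areg and 62 of Ereg in KO air against 56 and 125 in WT air, ratios of 0.0533 and 0.4935, and neither passed in limma there (adjusted p 0.142 and 0.204). The Ereg call (0.0444) was lost in 17 of 32 alternatives.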

How the data were processed

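Poly-A RNA was sequenced from macrophages of 20 mice, 1 library each, and groups were taken from the labels. The deposited values are log2 CPM, which the authors made with limma; the values follow its voom form (0.5 reads added). STAR 2.6.0c and GRCm38.p6 are named per the submitters' processing notes. No source used here gives the read counter, its annotation, its strand setting or the filter. Read numbers recovered from the values were whole to within 0.001 for 100% of them, and the least abundant gene kept has 14 reads. These reads gave levels, CPM and exact binomial intervals, which cover counting error only. For folds against a group with 0 reads, 3 reads were set for that group, and the counting error of the other group was left out.

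Here limma 3.58.1 (R 4.3.3) was fitted to the deposited log2 values of 13225 genes, with 1 mean for each group and a trended variance prior. The tests were 2-sided, adjusted by Benjamini-Hochberg over all genes of a contrast, and called at an adjusted p under 0.05. Errors are limma standard errors for log2 changes and SDs otherwise. The model was also run on simulated counts with the same spread setting for all genes. That run does not check the calls of genes as scattered as Mmp14. Levels per kb use GENCODE M21 exon lengths, by symbol. Every one of the 10 genes is given; from the companion lists up to 4 called genes with the smallest p in wild-type smoke are named. The genes, the lists and the tests were chosen with earlier results of these data known, and the seed search and the alternatives for companion genes were added after the data were seen. Alternatives covered the variance prior, filters, pseudocounts, scaling, weights, a covariate and left-out libraries. Replicates are separate mice.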

Additional observations from a re-analysis of the deposited data

Results flagged for a closer look

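In 40 sets of 5 mice (10 genes in 4 groups), 3 held a library far from the other 4 of its group; chance flags about 1 set in 20. Mmp13 in the WT air library Ia3 stood at -1.32 log2 CPM, which is 3 reads where the other libraries of the group had 0. Timp1 in the WT air library Ib1 stood at -4.17 log2 CPM, which is 0 reads, below the other 4. Timp2 in the KO smoke library IVa5 stood at 6.74 log2 CPM, below the other 4, and still above every KO air library.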

How the results depend on the processing

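Counts of called genes in the smoke responses and in the difference of responses stayed within 1.5 times the reported ones under every alternative run. The count of 2 for KO smoke against WT smoke was 0 without a variance trend and 0 with a robust prior, 1 with a minimum mean log2 CPM of 3 (which drops Mmp14 from the test), 1 with voom weights, and 4 with log2 of CPM plus 1 or plus 5. Leaving out 1 library at a time gave 0 (without IIb1) to 3 (without IIa5, which added Adam8). The count of 0 for KO air against WT air became 1 without IIIa5, a range of 0 to 1. Other than these filters, the cause was not tested. Over 1660 combinations of gene, comparison and alternative, 1597 stayed on the same side of the threshold, 46 lost a call and 17 gained one. Among the 1597 were 30 uncalled values whose sign was opposite to the reported one. Of 15 calls, 9 held throughout and 0 changed sign, while 11 of 35 uncalled results changed sign at least once. Of 59 calls on genes outside the 10, 45 held. No paired analysis was possible because each mouse code occurs once. Genes with few reads (Mmp13, Timp1, Mmp14, Mmp2) are limited by depth, where 3 reads equal 0.251 to 0.436 CPM.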
